A study of Mus musculus with 9 samples.

Results

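F-box genes were followed in poly-A RNA-seq of mouse metaphase II (MII) oocytes, eggs that have paused in the second meiosis and await fertilisation. The members were the protein-coding genes named Fbxo, Fbxw or Fbxl in the deposited tables, with Fbxo43 left out, which gave 76 of 18483 protein-coding and 30153 listed genes. They comprised 35 Fbxo genes, 18 Fbxl genes and 23 Fbxw genes, of which the 14 Fbxw genes on chromosome 9 were set apart. All oocytes came from superovulated 4-week-old females of mixed background and genotype Sycp3CreERT2/+; Rosa26nT-nG/+, that is, with a tamoxifen-inducible Cre allele named for the meiotic gene Sycp3 and a reporter that switches from red (tdTomato) to green (eGFP) nuclear fluorescence once Cre has recombined it. Females received 5 IU of PMSG and 48 h later 5 IU of hCG, and eggs were taken 13 h after hCG, stripped of cumulus cells and hand-picked under a fluorescence microscope as GFP High, as GFP Low or as RFP (3 libraries each). GFP High pools held 15 to 16 oocytes, GFP Low pools 49 to 57 and RFP pools 87 to 100, so the GFP High libraries rest on the fewest cells. All groups carry both alleles, and there was no group without Cre. Nothing in the labels says that the libraries of a group came from separate animals, so the p-values below measure the spread between these libraries.

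An F-box is a short protein motif that binds Skp1 and so docks a protein to the SCF ubiquitin ligase, in which the cullin Cul1 and the RING protein Rbx1 complete the core. The remainder of the F-box protein picks the substrate, through WD40 repeats in the Fbxw family, leucine-rich repeats in Fbxl and other or no known domains in Fbxo. Egg maturation relies on timed protein destruction, and since transcription is silent in the MII egg, its transcripts are a store laid down during oocyte growth.

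The 14 Fbxw genes of chromosome 9 formed a single tandem array between positions 109139447 and 109790670 of GRCm38 (the build called mm10), all 14 on the minus strand, over 651 kb with gaps of 12.1 to 56.7 kb. No other protein-coding gene lies inside it. Each gene has 10 coding-transcript exons and a coding sequence of 1392 to 1407 bases, and coding sequences were 79.7 to 99.1% identical over the 91 pairs (median 83.9%). The most alike pair was Fbxw14 and Fbxw28. Outside the array the nearest Fbxw gene in coding sequence was Fbxw17, at 56.3 to 58.4% identity.

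The region before the transcription start was also closely alike. RefSeq (GRCm38.p6) windows from 250 bases before to 50 after the start were at hand for 11 of the 14 genes, all but Fbxw13, Fbxw22 and Fbxw27, and for 57 of the 76 members. Over 55 pairs these windows were 83.1 to 97.7% identical (median 91.3%). Of the 300 positions of the Fbxw24 window, 184 held the same base in all 11 genes. The windows of the 3 genes with the highest levels per length, Fbxw24, Fbxw28 and Fbxw15, and of Fbxw25, whose level was the lowest among genes with a window, are shown to let the shared blocks be compared. They are written 5′ to 3′ on the minus strand, and capitals mark 7 runs of 8 or more bases that were found in the same order in all 11 windows. The windows lie at chr9:109626010-109626309 (Fbxw24), chr9:109339610-109339909 (Fbxw28), chr9:109568213-109568512 (Fbxw15) and chr9:109664603-109664902 (Fbxw25).
Fbxw24: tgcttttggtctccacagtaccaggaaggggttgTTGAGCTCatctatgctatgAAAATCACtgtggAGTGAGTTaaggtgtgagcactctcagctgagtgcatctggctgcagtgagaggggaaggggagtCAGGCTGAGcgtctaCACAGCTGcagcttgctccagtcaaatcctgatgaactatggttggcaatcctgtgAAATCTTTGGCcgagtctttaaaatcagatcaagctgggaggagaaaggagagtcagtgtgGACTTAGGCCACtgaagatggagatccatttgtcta
Fbxw28: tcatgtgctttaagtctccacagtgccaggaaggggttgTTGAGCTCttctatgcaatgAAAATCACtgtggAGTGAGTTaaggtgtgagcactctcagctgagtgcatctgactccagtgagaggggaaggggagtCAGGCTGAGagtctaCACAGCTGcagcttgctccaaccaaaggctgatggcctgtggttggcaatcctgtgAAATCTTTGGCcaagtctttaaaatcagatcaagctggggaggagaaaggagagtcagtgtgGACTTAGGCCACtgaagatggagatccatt
Fbxw15: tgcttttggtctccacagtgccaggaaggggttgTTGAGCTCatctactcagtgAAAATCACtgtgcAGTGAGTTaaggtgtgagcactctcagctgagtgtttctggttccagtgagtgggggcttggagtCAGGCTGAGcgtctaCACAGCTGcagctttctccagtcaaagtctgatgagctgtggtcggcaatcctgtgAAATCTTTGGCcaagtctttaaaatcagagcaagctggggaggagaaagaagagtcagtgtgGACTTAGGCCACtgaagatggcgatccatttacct
Fbxw25: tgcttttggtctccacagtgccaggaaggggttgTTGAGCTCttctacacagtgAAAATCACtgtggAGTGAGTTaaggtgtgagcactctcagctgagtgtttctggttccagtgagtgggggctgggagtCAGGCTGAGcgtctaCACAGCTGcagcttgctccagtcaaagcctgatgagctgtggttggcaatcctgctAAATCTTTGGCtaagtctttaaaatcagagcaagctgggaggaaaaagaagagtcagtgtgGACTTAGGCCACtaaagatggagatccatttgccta

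The longest shared run, GACTTAGGCCAC, began between positions -10 and 35 relative to the annotated start, which is counted as 0. It was found on either strand in 11 of 27025 RefSeq mouse promoter windows, and these 11 are the array windows themselves. The run AAATCTTTGGC was found in 16 of 27025, the 11 array windows among them. In the array its first base lay between -71 and -26. The 5 shorter runs were each found in 1.02 to 2.58% of all windows. Both long runs were picked after the alignment had been seen. The E-box CANNTG, the type of site bound by the oocyte factor Figla, was present on either strand in 11 of 11 array windows, in 34 of 46 windows of other F-box genes and in 72.1% of all windows. Its form CAGCTG, also chosen after the alignment had been seen, was in 11 of 11, in 10 of 46 and in 16.1%. CAGCTG overlaps the shared run CACAGCTG, and the 11 array windows are too alike to count as independent cases. The homeobox motifs TAATTA and TAATTG, the letters of the element bound by the oocyte factor Nobox, were in 0 of 11 array windows each, and in 5.31% and 8.15% of all windows. TATAAA was in 0 of 11 and in 14.2% of all windows.

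**Figure D1:**
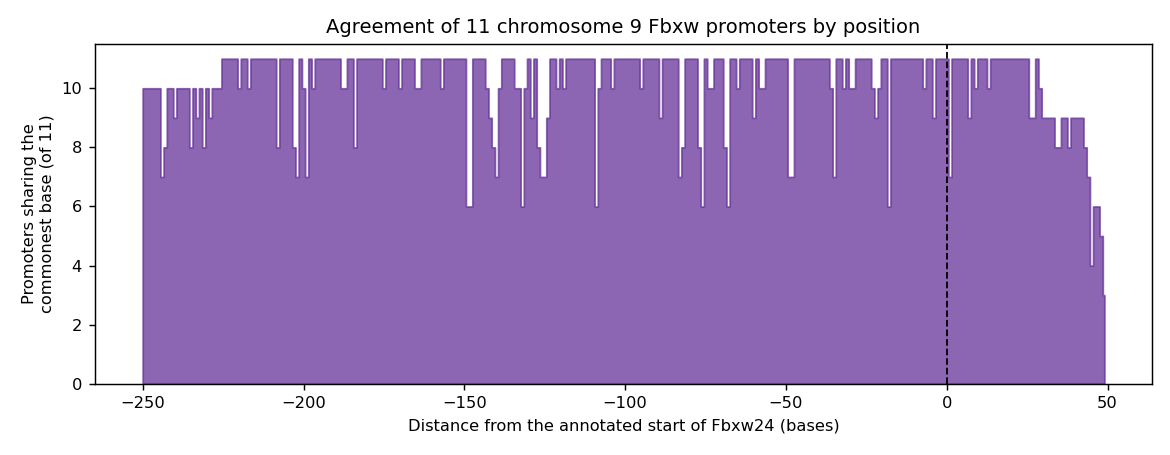
For each position of the Fbxw24 promoter window (x axis, bases from the annotated start, dashed line), the filled height gives how many of 11 array promoters share the commonest base (y axis). Of the 300 positions 184 reach 11, and agreement drops from position 26 after the start, where windows set by other genes' annotated starts end.

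Reporter transcripts matched the group names: eGFP ran from 35.8 to 43.8 CPM among GFP High libraries, from 14.5 to 23.9 among GFP Low and from 0 to 0.594 among RFP, where CPM is a gene's share of a library's counts on the usual CPM scale, with TMM factors over all 9 libraries. Totals were 19381677 to 27746256 counts, so that 1 CPM is about 19.4 reads at the smallest total. All 12 oocyte marker genes were present, at a summed 11300 to 13270 CPM. Of the 16 cumulus and granulosa markers, summed at 113.8 to 205.7 CPM in GFP High, at 142.4 to 155.2 CPM for GFP Low and at 128.9 to 190.9 CPM for RFP, most of the sum was Nr5a2 (100.8 to 157.2 CPM), while Amh, Amhr2 and Pgr were at 0 or at most 0.289 CPM. GFP High 1, GFP Low 1 and RFP 2 held their group's highest level of 5 of the 16: Inha, Inhba, Ptgs2, Ptx3 and Tnfaip6. Tnfaip6, a protein of the expanding cumulus matrix, was at 7.16, 6.62 and 10.9 CPM in these 3 libraries against 0 to 1.06 CPM in the others, and Ptx3, of the same matrix, at 5.78, 6.27 and 9.71 CPM against 0 to 1.59 CPM. Without Nr5a2 the list summed to 48.5, 43.8 and 60.9 CPM in them and to 13.0 to 27.7 CPM in the other libraries. Not every marker had this order. Fshr was highest in GFP High 3, GFP Low 3 and RFP 3 (2.238, 2.059 and 1.485 CPM). Within GFP Low, Cyp19a1 was highest in GFP Low 3 (17.73 CPM, against 12.17 in GFP Low 1), and Nr5a2 was lowest in GFP Low 1 (103.7 CPM). The oviduct and stroma lists and Ptprc, the only blood marker in the tables, each summed to at most 5.85 CPM. GFP High 2 stood apart: 13773 genes had 5 or more counts there against 15969 to 17663 in the other libraries, and it was the lowest or highest of the 9 libraries for 52.6% of genes at a mean of 1 CPM or more. Over all genes at that level GFP High 1 had 33.2%. For the F-box genes the share in GFP High 2 was 39.1% (25 of 64), close to the 35.9% (23 of 64) of GFP High 1. The remaining libraries had 10.9 to 21.9%. In GFP High 2, 13 members had 0 counts, against 2 to 6 in the other libraries.

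Most F-box genes were detected in the poly-A RNA of these eggs, and the array carried almost as much F-box CPM as all other members together. Levels here are those of poly-A RNA, and the length of the tails was not measured. Of the 76 members, 64 (84.2%) had a mean of 1 CPM or more, 44 (57.9%) of 20 or more and 19 of 100 or more. Of all 18483 protein-coding genes these were 60.1%, 31.4% and 2224 genes. The median member was at 31.3 CPM, against 3.40 for all protein-coding genes. By class the median was 130 CPM for the array, 28.1 for Fbxo, 14.1 for other Fbxw and 7.80 for Fbxl. Together the 76 members took 0.562 to 0.612% of all counts in a library. The array supplied 46.9 to 50.5% of the F-box CPM, with a mean share of 48.1%, ahead of the Fbxo genes (40.3%), the Fbxl genes (8.98%) and the other Fbxw genes (2.63%). Counted per kb of the gene length given in the tables, its share was 68.9 to 71.6%. For most members this length equals the exonic bases of all annotated transcripts together, not the length of the transcript in the egg. Levels per kb are therefore approximate.

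**Figure D2:**
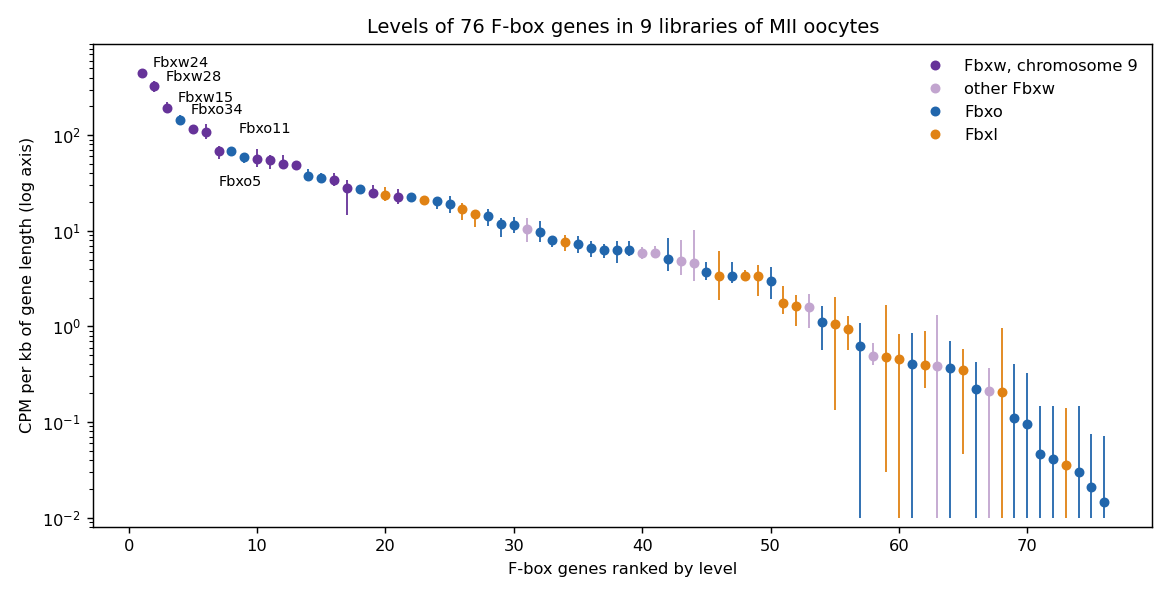
Each dot is the mean level of 1 of the 76 F-box genes over 9 libraries (y axis, CPM per kb of gene length, log scale) against its rank (x axis), with a line from the lowest to the highest library, drawn no lower than 0.01. The array genes, in dark purple, take the first 3 places, and all 14 are among the first 21.

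All 14 array genes were detected in all 9 libraries, with mean levels between 34.4 and 667.6 CPM, and 9 of them exceeded 100 CPM. By contrast the genes that flank the array were at 17.6 to 26.3 CPM (Plxnb1) and at 0 to 0.307 CPM (Spink8). The pseudogene Fbxw23, inside the array on the same strand, was at 34.1 to 47.5 CPM. Of the genes annotated on the opposite strand inside the array, Gm42493, Gm42756 and Gm43209 reached at most 1.12, 0.873 and 0.334 CPM, and Gm42494 was not analysed here. In the summed level of the array the groups overlapped. It was 3059, 2778 and 2701 CPM in GFP High 1, 2 and 3, and 2823, 2703 and 2789 CPM in GFP Low 1, 2 and 3. RFP 1, 2 and 3 had 2748, 2955 and 2802 CPM. GFP High had a mean of 2846 ± 188 CPM, GFP Low of 2772 ± 61.9 and RFP of 2835 ± 107 (SD, n = 3), closer to each other than the spread between the GFP High libraries. The highest sum of each group was in GFP High 1, GFP Low 1 and RFP 2. In these libraries 5 of the 16 cumulus markers were highest, and their part in the sum was not tested. Without these 3 libraries the group means were 2739, 2746 and 2775 CPM.

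As counted, Fbxw24 (ENSMUSG00000062275, chromosome 9, 109601116 to 109626057) had the highest mean level of the 76 members, in CPM and per length. It ranked 56th of the protein-coding genes per length. Its level was 704.5, 664 and 653 CPM in GFP High 1, 2 and 3, then 676, 671 and 653 CPM in GFP Low 1, 2 and 3. RFP 1, 2 and 3 had 640.2, 711 and 636 CPM. The 3 groups overlapped completely, and the gene had the smallest spread over the 9 libraries within the array (coefficient of variation 3.92%). By CPM in single libraries, Fbxw28 was above Fbxw24 in GFP High 1 and RFP 3, and Fbxo34 was above it in GFP Low 3 and RFP 1.

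Fbxw28 (ENSMUSG00000054087, chromosome 9, 109322886 to 109339659) came second per length. It was at 723, 634 and 640.5 CPM in GFP High 1, 2 and 3, and at 643, 596 and 546 CPM in GFP Low 1, 2 and 3. RFP 1, 2 and 3 had 567, 643 and 707 CPM. GFP Low 3 was the lowest and GFP High 1 the highest, with overlap between all groups. Fbxw24 and Fbxw28 together made up 43.0 to 47.9% of the array's CPM. The level of Fbxw28 is uncertain, because 66.0% of the 50-base windows of its exons, and 67.6% of those of Fbxw14, also occur in another annotated gene, for both chiefly in the other of the pair. How the counting treated reads that fit both was not given in the sources used here. The sum of both genes, which depends on whether such reads were kept but not on how they were split, was 795 to 978 CPM. For the other 12 array genes the shared portion was 1.66 to 21.9%.

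Fbxw15 (chromosome 9, 109552602 to 109568262), which neighbours Fbxw24, was at 291, 313 and 266 CPM in GFP High 1, 2 and 3, and at 288, 258 and 334.5 CPM in GFP Low 1, 2 and 3. RFP 1, 2 and 3 had 306, 276.5 and 274 CPM. GFP Low held both its highest and its lowest library, and the groups overlapped. Fbxw14, next to Fbxw28 (chromosome 9, 109270790 to 109287676), was at 217.5 to 258 CPM in the 9 libraries. Fbxw21, at the low-coordinate end of the array, was at 114 to 174.5 CPM, with GFP High 1 the highest and GFP High 3 the lowest library. Fbxw20 was at 107 to 151 CPM, where GFP High 3 was again the lowest. Fbxw27, at the other end, was at 82.2 to 115 CPM and was highest in GFP High 1. Fbxw19 was at 101 to 140.2 CPM, Fbxw26 at 102 to 142 CPM, Fbxw16 at 77.9 to 97.0 CPM and Fbxw13 at 29.0 to 41.6 CPM. In each of these 9 genes all 3 pairs of groups overlapped.

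Per length, the array fell into steps. The means were 448.6 CPM per kb for Fbxw24, 324.5 for Fbxw28, 193.7 for Fbxw15, 115 for Fbxw14 and 108 for Fbxw18. Fbxw26 followed at 68.5, Fbxw21 at 56.0, Fbxw20 at 55.6, Fbxw27 at 50.1 and Fbxw16 at 48.4 CPM per kb. The lowest were Fbxw19 at 34.2, Fbxw22 at 28.1, Fbxw25 at 25.1 and Fbxw13 at 22.8 CPM per kb. The place of Fbxw19 rests on its gene length of 3487 bases, since its mean of 119.3 CPM was above those of Fbxw27 (93.6) and Fbxw16 (87.1). Neighbours in this order whose ranges over the 9 libraries did not overlap were Fbxw24 and Fbxw28, Fbxw28 and Fbxw15, Fbxw15 and Fbxw14, Fbxw18 and Fbxw26, and Fbxw16 and Fbxw19. The other neighbours overlapped, so the order of Fbxw14 and Fbxw18, of Fbxw26 to Fbxw16, and of Fbxw19 to Fbxw13 is not fixed by these libraries. The places of Fbxw28 and Fbxw14, and the lead of Fbxw24 over Fbxw28, also depend on how reads that fit both Fbxw28 and Fbxw14 were counted. Ranges over the libraries cannot show this. Fbxw25, lower than every array gene but Fbxw13, lies next to Fbxw24, the highest, and their promoter windows, both printed above, were 91.3% identical.

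**Figure D3:**
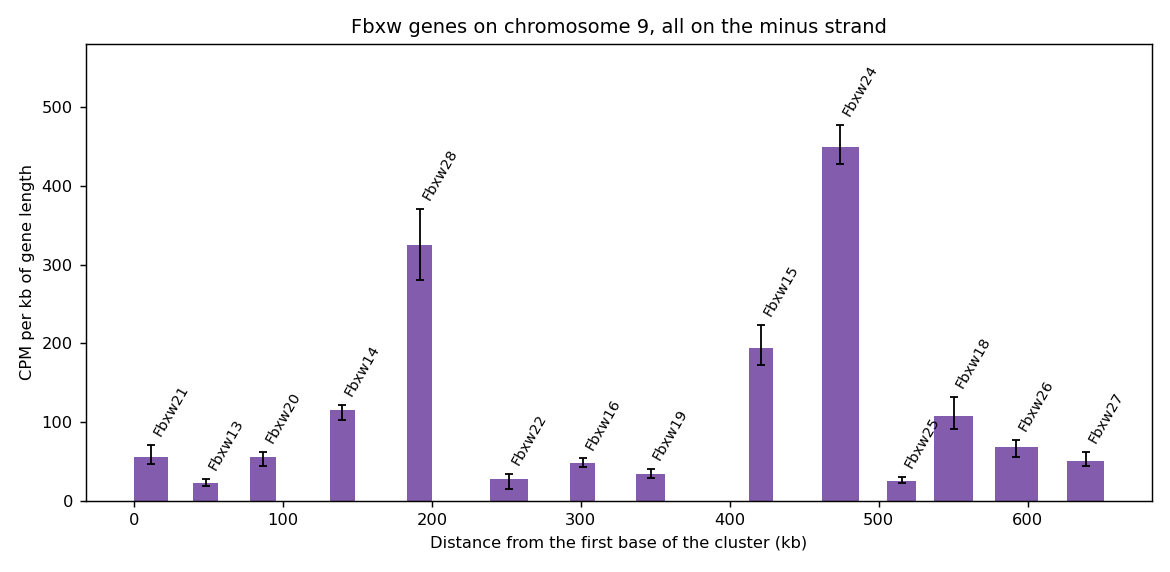
Bars show the mean level of each array gene over 9 libraries (y axis, CPM per kb of gene length), placed and sized by the gene's extent along the array (x axis, kb from its first base), with error bars from the lowest to the highest library. Fbxw24 and Fbxw28 stand above the rest, and low genes such as Fbxw25 and Fbxw13 lie between higher ones.

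**Figure D4:**
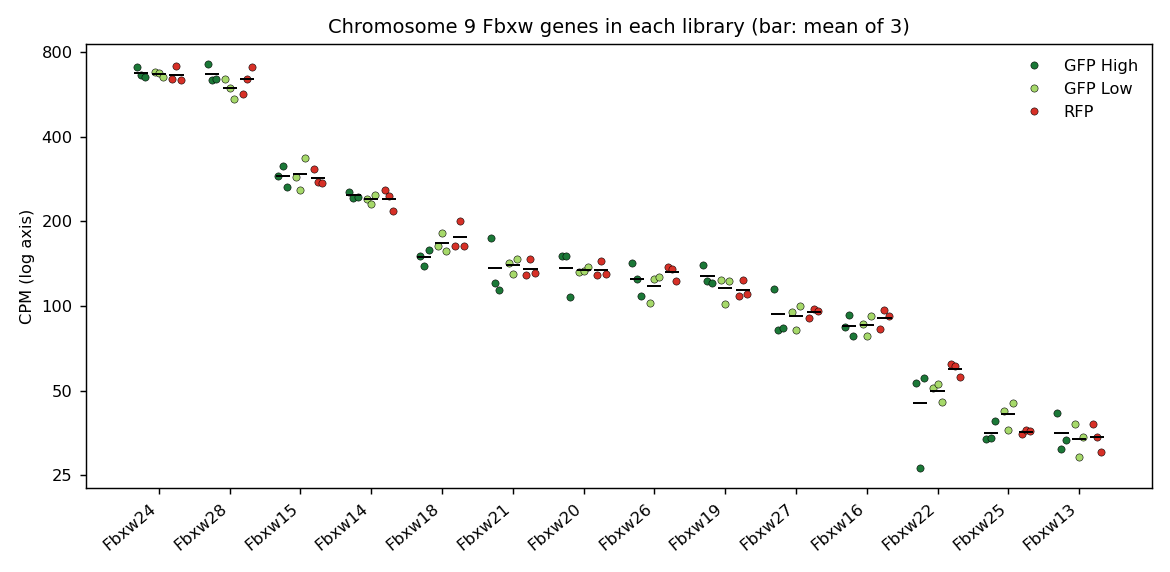
Each dot is 1 library and each bar a group mean of 3 libraries for the 14 array genes (y axis, CPM on a log scale), coloured by group. Groups overlap for most genes, and the single low dot of Fbxw22 is GFP High 2 at 26.6 CPM.

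Among the members outside the array, Fbxo34 had the highest level. It was at 589, 615 and 601.5 CPM in GFP High 1, 2 and 3, and at 630.1, 641.5 and 673 CPM in GFP Low 1, 2 and 3. RFP 1, 2 and 3 had 691, 547 and 622 CPM. All GFP High libraries lay below all GFP Low libraries, whereas RFP spanned both, and the difference between GFP High and GFP Low did not pass the test (log2 fold change -0.10, 95% interval -0.24 to 0.05, edgeR adjusted p = 0.998). Per length Fbxo34 reached 145.8 CPM per kb, between Fbxw15 and Fbxw14. Of its 50-base windows 22.1% also occur in other annotated genes, Gm7224 first among them, so its level and place are uncertain too.

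Fbxo5 (Emi1), an inhibitor of the anaphase-promoting complex, was at 124, 103 and 106 CPM in GFP High 1, 2 and 3, and at 113, 129 and 123.5 CPM in GFP Low 1, 2 and 3. RFP 1, 2 and 3 had 122, 130.3 and 119.5 CPM, and the groups overlapped. Fbxo30 was at 126.7 to 156.7 CPM over the 9 libraries. Fbxo18 (Fbh1), a DNA helicase that acts in recombination, was at 160.0 to 205 CPM, Fbxo28 at 175 to 233 CPM and Fbxo8, which carries a Sec7 domain, at 113.5 to 132 CPM. Fbxo38 was at 74.1 to 97.7 CPM. Fbxo40, known for turning over Irs1 in muscle, was at 85.0 to 126 CPM. Of the 35 Fbxo genes 19 had a mean of 20 CPM or more, while 9 had a mean under 1 CPM. Among those 9 was Fbxo32, the atrophy gene of muscle, at 0 to 2.83 CPM in single libraries.

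Fbxl5, the iron sensor that sets the level of the iron-regulatory protein IRP2, led the Fbxl genes in CPM, at 183 to 228 CPM in the 9 libraries. Per length Fbxl6 was slightly above it, with 23.9 against 21.0 CPM per kb. Fbxl21 had a mean of 2.31 CPM. In the Fbxw genes outside the array the highest was Fbxw7, the adaptor for cyclin E, at 37.7 to 48.9 CPM. Fbxw11, a beta-TrCP protein, was at 21.8 to 29.0 CPM. All 9 of these Fbxw genes had means below those of the array genes other than Fbxw25 and Fbxw13.

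The partners of these proteins were present in the same libraries. Skp1, listed as Skp1a, had a mean of 2386 CPM, Cul1 of 348.5 CPM and Rbx1 of 48.0 CPM. Of F-box genes with other names, Kdm2b, a CpG-island protein, had 1242 CPM, Btrc (the other beta-TrCP) 143 CPM, Ccnf (cyclin F) 52.3 CPM and Skp2 8.50 CPM. A list of 40 names held SCF core, enzyme, NEDD8, COP9 signalosome and exchange-factor genes, F-box genes with other names, and substrate co-factors. It gave Skp1 under both of its names, of which only Skp1a was found. Of the 40 names, 39 were found in the tables and 38 were tested in each comparison. None passed an adjusted p of 0.05 in edgeR, where the smallest were 0.997 (GFP High against RFP), 1.00 (GFP Low against RFP) and 0.998 (both GFP groups). An unadjusted p under 0.05 was found for 0 of 38 in either comparison with RFP, beside 4.09% (GFP High) and 2.62% (GFP Low) of all genes tested, and for 6 of 38 (15.8%) between the GFP groups, beside 3.77% of all genes. Those 6 were Rbx1 (log2 fold change 0.61), Ube2d1 (0.69), Uba3 (0.27) and Cks1b (0.43) with higher means in GFP High, and Kdm2b (-0.19) and Ube2f (-1.11) with lower means. Rbx1 was at 86.4 CPM in GFP High 2 and at 37.4 to 56.8 CPM in the other 8 libraries.

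The comparisons between groups ask whether eggs with a different reporter history hold different transcripts. Each pair of groups shares its libraries with another pair, so the results for the pairs are not independent. In pooled eggs, a lower level in each egg and fewer eggs with the transcript cannot be told apart. Of the 76 members 68 passed the filter on low counts in each comparison, and the 8 that did not were Fbxl15, Fbxl16, Fbxo4, Fbxo6, Fbxo24, Fbxo27, Fbxo32 and Fbxo44, each with a mean under 1 CPM.

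GFP High was compared with RFP first. No F-box gene passed an adjusted p of 0.05 in edgeR's quasi-likelihood test (0 of 68, against 0.0135% of all 14829 genes tested), and the smallest adjusted p of a member was 0.997. An unadjusted p under 0.05 was found for 4 of 68 members (5.88%), beside 4.09% of all genes tested. The libraries of the groups did not overlap for 9 members (13.2%), beside 12.1% of all genes. Of these, 3 were higher in GFP High (4.6% of all genes) and 6 lower (7.49% of all genes). The shares were near the background. The median log2 fold change of the members was 0.00, and that of all genes tested -0.01. For the array, 9 genes had higher and 5 lower fitted means in GFP High, and all 14 of the 95% intervals lay within a 2-fold change, with bounds from -0.94 to 0.46 on the log2 scale. Over all members 51 of 68 intervals were that narrow, and over all genes tested 7456 of 14829.

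The 4 members with an unadjusted p under 0.05 were Fbxw4, Fbxw5, Fbxl19 and Fbxo11. Fbxw4, the gene of dactylin, was at 37.5, 42.7 and 38.8 CPM in GFP High 1, 2 and 3, and at 28.6, 32.5 and 27.4 CPM in RFP 1, 2 and 3. In GFP Low 1, 2 and 3 it was at 24.3, 31.9 and 32.4 CPM. Every GFP High library lay above every other library, by 0.44 over RFP on the log2 scale (SE 0.16), which did not pass (edgeR adjusted p = 0.997). Of its exonic bases 21.4% overlap the antisense gene Gm17018, which was at 37.4, 45.8 and 23.5 CPM in GFP High 1, 2 and 3. The antisense gene was at 37.4, 35.2 and 33.8 CPM in the GFP Low libraries, and RFP had 31.8, 37.3 and 29.3 CPM. The strand setting of the counting was not given in the sources used here, so reads of this pair may not be told apart.

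Fbxw5, an adaptor for the centriole protein Sass6, was at 18.4, 31.4 and 10.1 CPM in GFP High 1, 2 and 3, and at 9.01, 10.7 and 12.6 CPM in RFP 1, 2 and 3. GFP High 3 lay inside the RFP range and GFP High 2 far above it. On the log2 scale the change was 0.91 with an SE of 0.37 (edgeR adjusted p = 0.997), and it was 0.42 without GFP High 2. Fbxl19, a CpG-binding CxxC protein, was at 60.3, 58.3 and 76.6 CPM in GFP High 1, 2 and 3, and at 82.7, 83.1 and 83.0 CPM in RFP 1, 2 and 3. Every GFP High library was lower, and the log2 change of -0.33, with an SE of 0.14 (edgeR adjusted p = 0.997), was -0.27 without GFP High 2.

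Fbxo11, an adaptor for the transcription factor Bcl6, was at 262, 251 and 256 CPM in GFP High 1, 2 and 3, and at 308, 285 and 302 CPM in RFP 1, 2 and 3. The groups did not overlap, but the change was small, at -0.20 on the log2 scale with an SE of 0.09 (edgeR adjusted p = 0.997). Of the array, Fbxw22 and Fbxw18 had all GFP High libraries below all RFP libraries. Fbxw22 was at 53.2, 26.6 and 55.7 CPM in GFP High 1, 2 and 3, and at 62.1, 61.3 and 56.1 CPM in RFP 1, 2 and 3. Fbxw18 was at 151, 139 and 157.5 CPM in GFP High 1, 2 and 3, and at 164, 201 and 163 CPM in RFP 1, 2 and 3. GFP High 2 was the lowest of the 9 libraries for both genes. Their log2 fold changes were -0.39 (SE 0.25) and -0.22 (SE 0.12), neither with an unadjusted p under 0.05. Without GFP High 2 the value of Fbxw22 was -0.13, and without RFP 2 that of Fbxw18 was -0.12.

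GFP Low was then compared with RFP. Again 0 of 68 members passed in edgeR's quasi-likelihood test, beside 0.0197% of all 15199 genes tested, with a smallest adjusted p of 1.00. An unadjusted p under 0.05 was found for 4 members (5.88%, beside 2.62% of all genes), and the libraries did not overlap for 6 (8.82%, beside 7.72%), of which 2 were higher in GFP Low (3.5% of all genes) and 4 lower (4.22% of all genes). The array's 14 intervals were the narrowest here, from -0.50 to 0.48 on the log2 scale, with 7 genes above and 7 below 0. The median log2 fold change of the members and that of all genes tested both rounded to 0.00.

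Each of the 4 members with an unadjusted p under 0.05 had every GFP Low library below every RFP library, and Fbxw8, Fbxl18 and Fbxw22 were among them. Fbxw8, which works with Cul7 in place of Cul1, was at 18.9, 21.7 and 23.6 CPM in GFP Low 1, 2 and 3, and at 24.0, 25.7 and 33.6 CPM in RFP 1, 2 and 3. The closest libraries were 23.6 and 24.0 CPM, and the change of -0.37 on the log2 scale, with an SE of 0.16 (edgeR adjusted p = 1.00), was -0.21 without RFP 3. In GFP High 1, 2 and 3 Fbxw8 was at 29.0, 44.1 and 19.9 CPM, again with GFP High 2 the highest. Of its exonic bases 33.4% overlap an antisense gene. Fbxl18 was at 4.88, 4.84 and 5.24 CPM in GFP Low 1, 2 and 3, and at 5.47, 8.35 and 9.28 CPM in RFP 1, 2 and 3. The log2 change of Fbxl18 was -0.62 with an SE of 0.25 (edgeR adjusted p = 1.00). Its GFP High libraries were at 4.03, 0.0405 and 10.8 CPM, so that the group spans the range of all others.

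Fbxw22 of the array was at 51.1, 53.0 and 45.4 CPM in GFP Low 1, 2 and 3, under the 56.1 to 62.1 CPM of RFP. This is a log2 change of -0.26 with an SE of 0.11 (edgeR adjusted p = 1.00). Fbxw22 was thus the only array gene whose libraries lay below RFP in both GFP groups, in comparisons that share the RFP libraries. GFP High 3 and RFP 3 were at 55.7 and 56.1 CPM, so GFP High barely separates. How many of all genes have this order was not counted. The nearest relative of Fbxw22 in coding sequence is Fbxw14 (92.5%), and 10.9% of its 50-base windows are shared with other genes. Fbxw25 was the array gene with the opposite order, at 42.5, 36.2 and 45.0 CPM in GFP Low 1, 2 and 3 against 34.9, 36.1 and 35.8 CPM in RFP 1, 2 and 3 (log2 fold change 0.22, SE 0.12). GFP Low 2 and RFP 2 were 36.2 and 36.1 CPM, so the groups barely separate.

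The GFP groups were last compared with each other, GFP High over GFP Low, which bears on brighter and dimmer eggs. None of 68 members passed in edgeR's quasi-likelihood test (smallest adjusted p = 0.998), and none of all 14785 genes did (0.0%). An unadjusted p under 0.05 was found for 2 members (2.94%, beside 3.77% of all genes), and 6 members did not overlap (8.82%, beside 11.7%), 2 higher in GFP High (4.49% of all genes) and 4 lower (7.22% of all genes). The 2 were Fbxw4, at 0.43 on the log2 scale with an SE of 0.17, and Fbxl19, at -0.34 with an SE of 0.14 (edgeR adjusted p = 0.998 for both). The levels of Fbxl19 in GFP Low 1, 2 and 3 were 88.3, 80.3 and 80.5 CPM, all above the highest GFP High library. No array gene separated the groups, 8 had higher and 6 lower fitted means in GFP High, and the 14 intervals ran from -0.69 to 0.49 on the log2 scale.

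**Figure D5:**
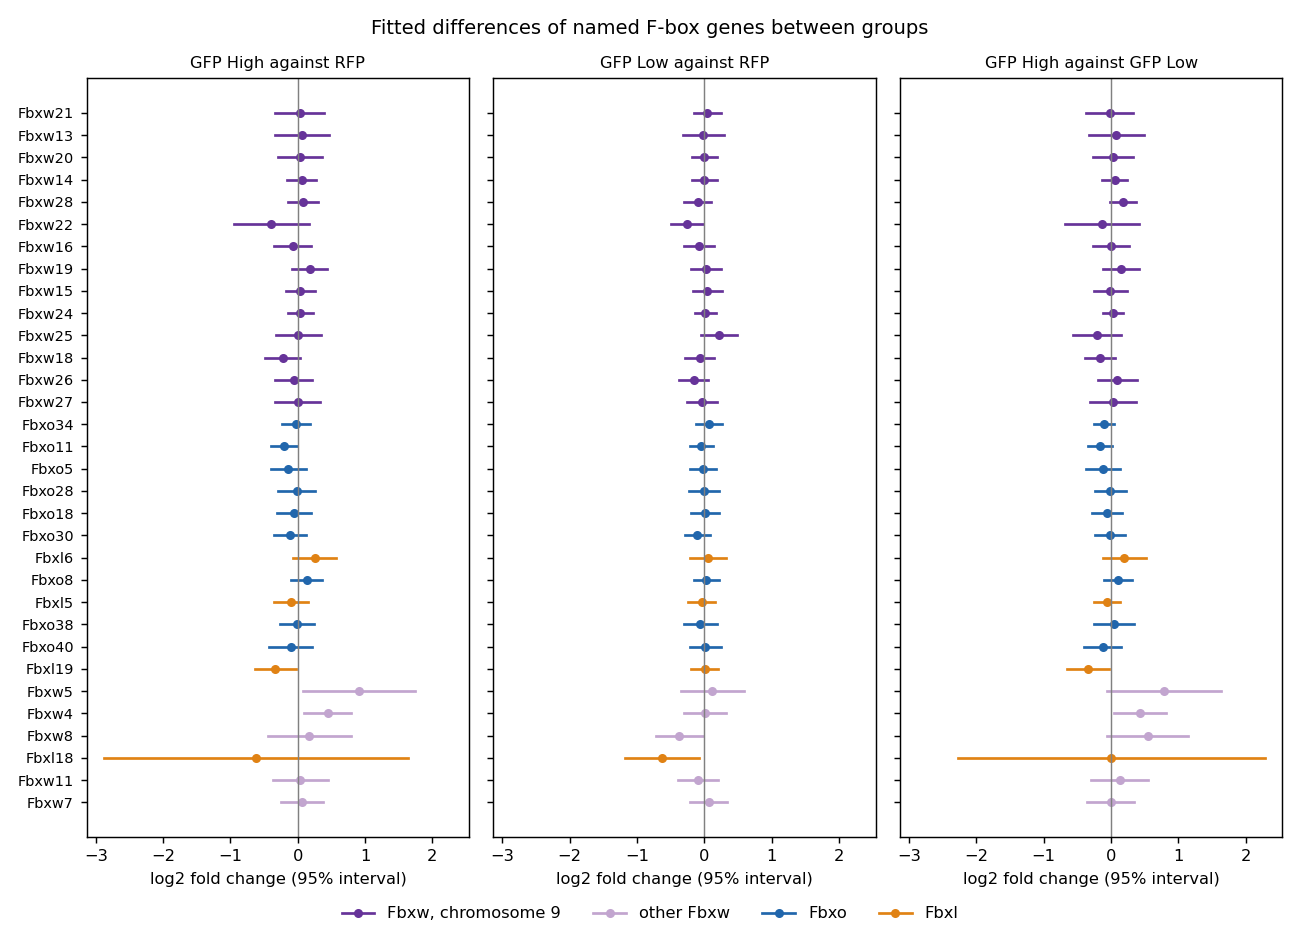
For most of the named F-box genes, each point is the fitted log2 fold change (x axis) with its 95% interval, in the 3 comparisons from left to right, coloured by family. The array genes lie close to 0 in all 3 panels, with Fbxw22 the lowest in GFP High against RFP at -0.39, while Fbxl18 has the widest intervals shown.

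The spread between libraries of a group was compared by the coefficient of variation. Among genes with a mean of 20 CPM or more, the median coefficient of variation of the 14 array genes was 8.69% for GFP High libraries, 8.19% for GFP Low and 6.88% for RFP. In the same order it was 10.1, 9.10 and 7.91% for the 30 other F-box genes and 13.3, 7.39 and 8.72% for all 6063 genes at that level, so that in GFP Low the array's median was above that of all genes. The largest value of a single array gene was 35.8% among GFP High libraries, 13.4% for GFP Low and 12.3% for RFP. Within the array the largest spread over the 9 libraries was that of Fbxw22, at 20.7%. The authors' deposited tables give no member an adjusted p under 0.05 either: in comparisons with RFP the smallest are 0.432 (GFP High) and 1 (GFP Low), and between the GFP groups it is 0.676. DESeq2's Wald test and limma-voom, run on the same counts, also found 0 members past an adjusted p of 0.05 in each comparison.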

How the data were processed

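MII oocyte pools of 3 groups with 3 libraries each were analysed. Per the submitters' processing notes, fastp, HISAT2 2.0.5, featureCounts 1.5.0-p3, DESeq2 1.20.0 and the build mm10 were used by the authors. The strand setting, the treatment of reads that map more than once and the annotation release are not given in the sources used here. The authors deposited 3 tables, 1 per pair of groups, with the raw read count of each gene in 6 libraries, which were the input to all tests. The authors' own log2 changes and p-values, raw and adjusted, in the same deposited tables are quoted only where those tables are named. The tables were joined by gene identifier, and 36 further columns of normalised values per library were not used. For 178 genes that a table lacked, none of them an F-box gene, the count was set to 0.

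CPM were scaled by TMM over all 9 libraries. Each pair of groups was fitted on its 6 libraries over all genes with edgeR 4.0.16 (R 4.3.3; filterByExpr, TMM, glmQLFit, glmQLFTest, no covariate), with Benjamini-Hochberg adjustment over all genes tested and a threshold of 0.05. Standard errors came from the F statistic, and intervals are 95%. DESeq2 1.42.0 and limma 3.58.1 (voom) were among the alternatives, which are given in the closing section. Coding sequences and shared windows of 50 and 100 bases came from GENCODE M21 (GRCm38), in which all 76 members were found, 73 with the same coordinates. Promoters came from RefSeq GRCm38.p6. The intervals of fold changes rest on the spread between libraries. The named genes were the array genes at 1 CPM or more, the 12 other members with the highest level per length, members with an unadjusted p under 0.05, and members with textbook roles in meiosis or the cell cycle. Members, lists and rules were chosen with earlier results of these data known. The values of 1 named gene are not reported here.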

Additional observations from a re-analysis of the deposited data

How the results depend on the processing

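In each of the 3 comparisons, 0 F-box genes passed an adjusted p of 0.05 under all 15 alternatives run: DESeq2 size factors, library totals alone, no filter, a mean of at least 50 counts, DESeq2's Wald test, limma-voom, protein-coding genes only, all 9 libraries, a replicate block, and leaving out each of 6 libraries. Over all genes the calls moved from 2, 3 and 0 (GFP High against RFP, GFP Low against RFP, GFP High against GFP Low) to 16, 34 and 16 with no filter, 12, 10 and 4 with DESeq2 and 1, 1 and 0 with limma-voom. The median log2 fold change of the F-box genes, leaving out 1 library at a time, ran from -0.0542 to 0.0502 (GFP High against RFP), -0.0302 to -0.00853 (GFP Low against RFP) and -0.0539 to 0.0432 (between the GFP groups). The array's own median for GFP High against RFP lay between -0.0664 and 0.0604. Between the GFP groups it ran from -0.0426 (without GFP Low 2) to 0.0730. Without GFP High 1 the medians of all F-box genes were lowest in both comparisons of GFP High. An alternative chosen after seeing the data left out GFP High 1, GFP Low 1 and RFP 2, where 5 of the 16 cumulus markers were highest. In edgeR 0 F-box genes passed in each comparison (smallest adjusted p = 0.927, 1.00 and 0.999), those with an unadjusted p under 0.05 numbered 1, 0 and 1 in place of 4, 4 and 2, and the F-box median of GFP High against RFP was -0.0665. The array's share of F-box levels per kb was 70.5% (GFP High), 69.5% (GFP Low) and 69.8% (RFP), against 48.9%, 47.5% and 48.0% in CPM. The shares per kb depend on the gene lengths used.

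With the replicate block the median of GFP High against RFP was -0.0345, and calls over all genes were 4, 3 and 1 in the same order. For libraries with the same replicate number, deviations from the group means correlated between -0.209 and 0.209. Libraries with different numbers were not compared, so a shared origin of same-numbered libraries was not tested. No called value could reverse, but the sign of the fitted change differed in at least 1 alternative for 20 of 34 named genes when GFP High was set against RFP, for 20 with GFP Low and for 15 between the GFP groups. In its own comparison, none of the genes with an unadjusted p under 0.05 changed sign. They had been picked for a small p, so this adds no support. With 1 library left out, their unadjusted edgeR p stayed under 0.05 in 1 of 6 fits (Fbxl19 and Fbxw5) up to 4 of 6 (Fbxw4). With all 9 libraries in 1 fit, 0 F-box genes had an unadjusted p under 0.05 in GFP Low against RFP, against 4. Pools of 15 to 16 oocytes limit GFP High most, and members under 1 CPM rest on few reads.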
